A study of Mus musculus with 3 samples.

Results

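Connexins are the proteins of vertebrate gap junctions, and 8 mouse connexin genes, Gja1, Gja3, Gja4, Gja5, Gjb1, Gjb2, Gjb5 and Gjc1, are described here in F9 cells. All probe sets whose platform annotation gives 1 gene symbol, that of 1 of these genes, were taken: 16 of the 45101 probe sets on the array, and 8 of its 18194 singly named genes. Total RNA of undifferentiated F9 cells, a mouse embryonal carcinoma line established from a teratocarcinoma, was hybridised to 3 Affymetrix Mouse Genome 430 2.0 arrays labelled replicates 1, 2 and 3. Per the labels, the culture used DMEM with 10% fetal calf serum on dishes treated with 0.2% gelatin, and RNA was taken near 80% confluence. All 3 arrays form 1 group of 1 untreated line; no treated, differentiated or other cells were measured, so each connexin was set against the background of the same arrays.

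Connexins are membrane-spanning proteins that assemble in rings into hemichannels, and hemichannels of neighbouring cells dock to form channels that pass ions and small metabolites. The letter in the gene name gives the sequence group: Gja genes encode alpha, Gjb genes beta and Gjc genes gamma connexins. Cells of the preimplantation mouse embryo and embryonic stem cells are known to be coupled by gap junctions, and Gja1 is the connexin best known in them.

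F9 cells expressed 3 of the 8 connexin genes above background: Gja1, Gjc1 and Gjb5. The other 5, Gja3, Gja4, Gja5, Gjb1 and Gjb2, were not above background. Values are linear signal intensities, and background was the 95th percentile of 126 probe sets for taste, vomeronasal and olfactory receptor genes and keratin-associated protein genes, which lay at 44.6, 46.1 and 43.2 on replicates 1, 2 and 3. The margin of a probe set is its mean log2 signal minus the log2 of that threshold, tested with limma one-sided against 0 and adjusted by Benjamini-Hochberg over all probe sets (threshold 0.05). "Not above background" does not mean that a gene is silent.

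Of the 16 connexin probe sets, 9 (56.2%) were above background, where 38.1% of all probe sets were. Without a test, the same count of 9 exceeded the threshold on every array, where 41% of all probe sets did. By gene, each represented by its probe set with the highest mean signal, 3 of 8 connexins (37.5%) passed, where 51.1% of the 18079 named genes outside the background families did. The 2 shares lie on opposite sides of their backgrounds. Gja1 alone holds 6 of the probe sets, and without Gja1 3 of 10 connexin probe sets (30%) passed. The median margin was 2.48 log2 units over the 16 probe sets, against -0.43 over all probe sets, and -0.10 over the 8 genes, against 0.72 over the named genes.

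**Figure D1:**
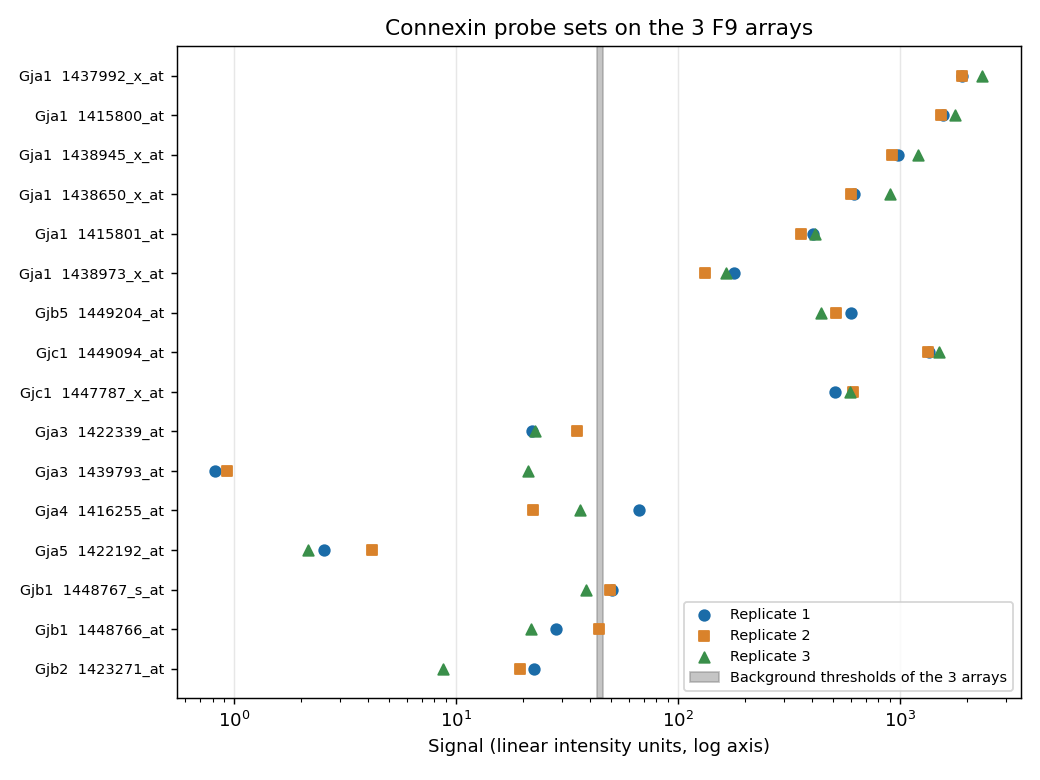
Signal of each connexin probe set on each F9 array (horizontal log axis, linear intensity units; circles, squares and triangles are replicates 1, 2 and 3), with the grey band spanning the background thresholds of the arrays. The 9 probe sets of Gja1, Gjb5 and Gjc1 lie right of the band on every array, from 132 to 2347, and the other 7 lie within or left of it apart from 3 of their 21 signals.

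Gja1 encodes Cx43, the most widely distributed connexin, with a long cytoplasmic tail that carries phosphorylation and scaffold-binding sites. Its probe set 1415800_at had signals of 1571, 1534 and 1778 on replicates 1, 2 and 3. The probe set 1437992_x_at gave 1902, 1896 and 2347. All 6 Gja1 probe sets stood far above the threshold of every array, with margins from 1.82 to 5.51 log2 units (limma adjusted p from 0.000116 to 0.00168). The dimmest of them, 1438973_x_at, had 179, 132 and 165 and still lay above background on each array. The others were 1415801_at at 393 ± 30.2, 1438650_x_at at 709 ± 170 and 1438945_x_at at 1036 ± 148 (SD, n = 3).

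The mean signals of the 6 Gja1 probe sets spanned a 12.9-fold range although they are annotated to a single gene, so signals of different connexins give no order of transcript abundance. Of these probe sets 4 carry the suffix _x_at, which Affymetrix gave to sets whose probes can also bind other transcripts. The 2 without it, both designed from the GenBank record M63801, were above background as well.

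Gjc1 encodes Cx45, which the mouse embryo needs for the early heart and its vessels. The probe set 1449094_at read 1354, 1336 and 1504 on replicates 1, 2 and 3, a margin of 4.97 ± 0.12 log2 units (SE, n = 3; limma adjusted p = 0.000116). The second probe set, 1447787_x_at, read 512, 612 and 594. Both probe sets lay above the threshold on all arrays with a narrow spread, the highest signal being 1.13 times the lowest for 1449094_at and 1.20 times for 1447787_x_at.

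Gjb5 encodes Cx31.1, a beta connexin known in the mouse from skin and placenta. Its only probe set, 1449204_at, read 601, 517 and 441 on replicates 1, 2 and 3, with a margin of 3.53 ± 0.14 log2 units (SE, n = 3; limma adjusted p = 0.000229). All 3 signals were far above the threshold, and the highest was 1.36 times the lowest. The call rests on 1 probe set, so no second measurement of this transcript was at hand. Of the 4 beta connexins measured, Gjb1, Gjb2, Gjb5 and Gjb6, only Gjb5 was above background, where 51.1% of all named genes were. Gjb1 joined Gjb5 under a single alternative threshold, given with its values.

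The promoters of Gja1 and Gjb5 are printed as those of connexins above background, and that of Gja4 as a connexin on the same chromosome as Gjb5 that was not above background. Each is the RefSeq window of 300 bases (GRCm38.p6) from 250 before to 50 after the gene start, 5′ to 3′ on the gene's strand. Gja1 is at chr10:56377050-56377349 on the plus strand, Gjb5 at chr4:127358115-127358414 and Gja4 at chr4:127313990-127314289, both on the minus strand. Capitals mark matches on either strand to the TATA box (TATAAA), the AP-1 motif (TGANTCA), the GC box (GGGCGG), the CCAAT box and the POU octamer (ATGCAAAT), none of which overlapped in these windows.
Gja1: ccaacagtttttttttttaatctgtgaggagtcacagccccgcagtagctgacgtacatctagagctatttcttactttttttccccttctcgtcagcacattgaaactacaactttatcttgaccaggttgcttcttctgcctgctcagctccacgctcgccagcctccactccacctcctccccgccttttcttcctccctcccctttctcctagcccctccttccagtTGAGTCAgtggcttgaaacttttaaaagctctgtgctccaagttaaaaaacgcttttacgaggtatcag
Gjb5: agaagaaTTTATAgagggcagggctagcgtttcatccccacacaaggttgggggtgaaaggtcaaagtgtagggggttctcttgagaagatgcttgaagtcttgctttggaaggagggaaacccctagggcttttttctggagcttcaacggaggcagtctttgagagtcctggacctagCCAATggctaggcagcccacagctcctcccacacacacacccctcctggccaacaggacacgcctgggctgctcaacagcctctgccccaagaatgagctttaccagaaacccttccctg
Gja4: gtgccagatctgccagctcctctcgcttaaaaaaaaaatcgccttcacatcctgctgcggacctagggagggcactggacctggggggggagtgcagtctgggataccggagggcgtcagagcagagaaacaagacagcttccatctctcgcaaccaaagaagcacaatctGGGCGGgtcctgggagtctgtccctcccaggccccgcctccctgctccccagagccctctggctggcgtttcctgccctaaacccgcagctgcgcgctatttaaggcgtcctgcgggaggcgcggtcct

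The Gja1 window held 1 match to TGANTCA, the binding motif of AP-1 (Jun and Fos dimers), which began 19 bases before the gene start, and 7.81% of the 32851 RefSeq promoter windows hold this motif. The Gjb5 window held a match to TATAAA on the opposite strand 243 bases before the start, and 13.6% of all windows hold one. It also held a CCAAT match 70 bases before the start, found in 37.4% of all windows. The Gja4 window held a GC box, GGGCGG, the motif of Sp factors, 79 bases before the start, and 35.7% of all windows hold it. The octamer ATGCAAAT of POU factors, present in 1.74% of all windows, matched none of the 11 windows listed for 7 of the connexin genes. Gjc1, which was above background, had no window in this set, so its promoter was not searched. The windows also differed in CpG content, with 8 CpG in the Gja1 window, 3 in that of Gjb5 and 16 in that of Gja4, against a median of 7 over all windows. These matches describe the letters of the windows and do not show binding.

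Some connexin genes lie next to each other in the genome. In the RefSeq gene table Gja3, Gjb2 and Gjb6 are consecutive coding genes on mouse chromosome 14. None of them was above background, where 51.1% of all named genes were. Gja1 on chromosome 10 and Gjc1 on chromosome 11 have no connexin as a direct coding neighbour. Neighbours were looked up for Gja1, Gja3, Gjb2 and Gjc1 only. On chromosome 4, Gjb5 was above background and Gja4 was not.

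**Figure D2:**
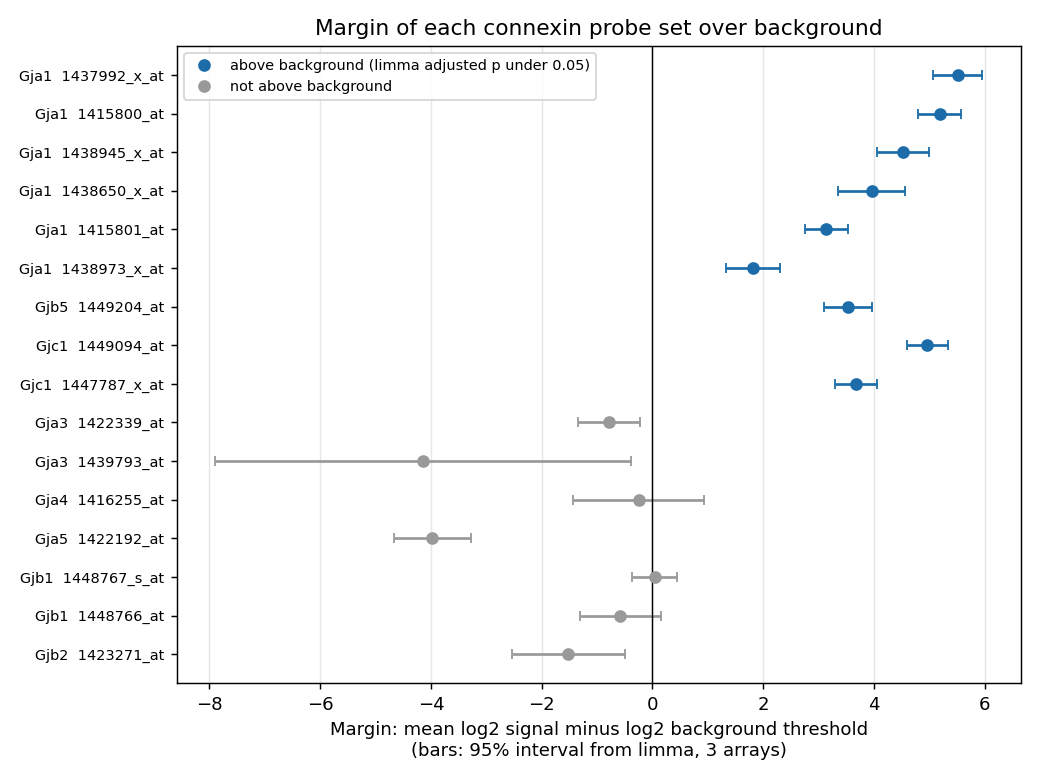
Margin of each connexin probe set over background (horizontal axis, log2 units; points are means of 3 arrays, bars limma's 95% intervals; blue is above background, grey is not). The 9 blue probe sets of Gja1, Gjb5 and Gjc1 have intervals wholly right of 0, and the grey Gja4 and Gjb1 probe sets have intervals that include 0.

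Among the connexins not above background, Gjb1 came closest to the threshold. It encodes Cx32, the main connexin of hepatocytes and of myelinating Schwann cells. Its probe set 1448767_s_at read 50.5, 49.6 and 38.4 on replicates 1, 2 and 3, just over the threshold on the first 2 arrays and under it on the third. The margin was 0.04 log2 units, with a 95% interval from -0.37 to 0.45 (limma adjusted p = 0.903). With a lower threshold, taken from 27 Bacillus control probe sets, this probe set passed at a margin of 1.02 (limma adjusted p = 0.0119). The other Gjb1 probe set, 1448766_at, read 28.1, 43.9 and 21.7 and stayed under the threshold on every array.

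Gja4, the Cx37 gene of endothelium and of the oocyte, varied most between arrays among the 5 genes when each is represented by its brightest probe set. Its signals were 66.7, 22.2 and 36.0, above the threshold on replicate 1 only. The margin was -0.25 log2 units, with a 95% interval from -1.43 to 0.93, so the 3 arrays do not place Gja4 on either side of background.

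Gja3, Gja5 and Gjb2 lay under the threshold on all 3 arrays. Gja3, the Cx46 gene known from lens fibre cells, read 22.0, 35.0 and 22.6 with the probe set 1422339_at, a margin of -0.79 log2 units with a 95% interval from -1.35 to -0.22. Its second probe set, 1439793_at, read 0.822, 0.926 and 21.1, and differed 25.6-fold between arrays at signals where no order can be read. Gjb2, the Cx26 gene of the cochlear supporting cells, liver and placenta, read 22.4, 19.4 and 8.72 (margin -1.52, 95% interval from -2.53 to -0.50). Gja5, the Cx40 gene of atrial muscle and arterial endothelium, read 2.55, 4.17 and 2.16 (margin -3.97, 95% interval from -4.67 to -3.27). Each of these 3 intervals ends below 0, which bounds the signal under the background threshold, not the transcript itself. Of the 7 connexin probe sets not called by limma, 0 passed at an unadjusted p of 0.05, and 0 had a signal over the threshold on every array.

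The Gja1 probe sets had nearly the same order of arrays, though some gaps were small. All 6 were lowest on replicate 2, but 1437992_x_at read 1902 on replicate 1 and 1896 on replicate 2, which is close to a tie. The share of all probe sets lowest on replicate 2 was not taken. Of the 6, 5 were highest on replicate 3, where 36.8% of all probe sets above background were. Their median deviation from their own mean was -0.06, -0.14 and 0.17 log2 units on replicates 1, 2 and 3. The same median over all probe sets above background lay between 0 and 0.001 on each array. That value is a centre over many probe sets of scaled arrays and does not say how far single genes vary. The 6 probe sets read the same RNA of each array and are not independent, and with 1 array per RNA sample, differences between cultures and between hybridisations cannot be told apart.

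Gjb5 was highest on replicate 1 and lowest on replicate 3, unlike Gja1. The 2 Gjc1 probe sets had their highest signals on different arrays, 1449094_at on replicate 3 and 1447787_x_at on replicate 2. The SD of log2 signal over the arrays ranged from 0.14 to 0.37 among the 9 connexin probe sets above background, with a median of 0.20. The median SD was 0.13 over the 10476 probe sets above background whose mean signal lay within the range of those 9. The 7 connexin probe sets not above background had a median SD of 0.47, with 2.69 for the low Gja3 probe set.

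**Figure D3:**
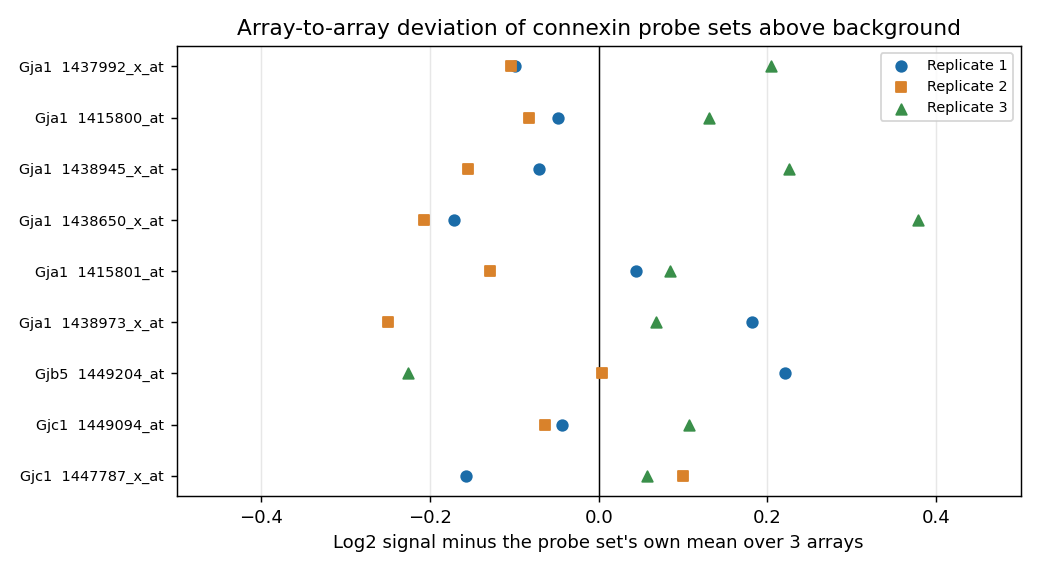
Log2 signal of each connexin probe set above background minus its own mean over the arrays (horizontal axis; circles, squares and triangles are replicates 1, 2 and 3). Replicate 2 is the lowest of the 3 in all 6 Gja1 rows, by a small gap in some, while Gjb5 is highest on replicate 1.

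Other connexins and the pannexins, a separate family of large-pore channels, were measured on the same arrays. Of 12 other connexin genes listed, 6 were matched to probe sets. Of these 6, 0 were above background (limma), where 51.1% of all named genes were. At an unadjusted p under 0.05 there were also 0, and 0 lay over the threshold on every array. They were Gja10 of retinal horizontal cells at 21.0 ± 11.4, Gjb6 of the cochlea and astrocytes at 11.3 ± 7.80, Gjc3 of myelinating glia at 20.9 ± 5.65, the neuronal Gjd2 at 27.2 ± 2.89, Gjd4 at 17.6 ± 11.7 and Gje1 at 0.777 ± 0.454 (SD, n = 3). The other 6 were not analysed here.

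Panx1, which forms ATP-releasing channels, read 133, 145 and 130, a margin of 1.60 log2 units (limma adjusted p = 0.000808). It was above background on every array. Panx2, known from neurons, at 14.02 ± 11.4 and Panx3, known from cartilage and bone, at 24.9 ± 9.14 were not (SD, n = 3).

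Of the genes for proteins that bind connexins or lie beside them at cell contacts, 9 of 12 measured (75%) were above background, where 51.1% of all named genes were, and their median margin was 3.14 log2 units, against 0.72 over the named genes. These shares describe small lists and were not tested against other genes. Tjp1 encodes ZO-1, which binds the tail of Cx43, and read 1324, 1289 and 1431. Dbn1 (drebrin), which links Cx43 to actin, stood at 420 ± 32.7, the cortactin gene Cttn at 2632 ± 70.6 and Tjp3 (ZO-3) at 111 ± 25.6 (SD, n = 3). Tjp3 had a margin of 1.29 log2 units; without replicate 3 it was 1.24 and missed the threshold (limma adjusted p = 0.0595), and Cttn fell short at 0.19 log2 units when probe sets without a suffix letter were preferred. The 3 that did not pass were the caveolin genes Cav1 (25.9 ± 21.2) and Cav2 (32.6 ± 19.4) and the N-cadherin gene Cdh2 (57.7 ± 15.0).

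Kinases known to phosphorylate Cx43 were above background in 8 of 10 measured genes (80%, against 51.1% of all named genes), with a median margin of 2.76 log2 units, against 0.72. Src, the tyrosine kinase, read 290, 347 and 280, Mapk7 (ERK5) stood at 179 ± 16.1 and the protein kinase C gene Prkcd at 211 ± 5.71 (SD, n = 3). When probe sets without a suffix letter were preferred, Prkcd lay at -0.61 log2 units. The protein kinase C genes Prkca (49.8 ± 26.2) and Prkce (41.6 ± 11.2) were not above background.

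Genes of connexin trafficking and turnover passed in 9 of 10 cases (90%, against 51.1% of all named genes), with a median margin of 3.42 log2 units, against 0.72. The ubiquitin ligase Nedd4, known to act on Cx43, read 4209, 4172 and 4241. Smurf2 (553 ± 16.3) and Wwp1 (414 ± 34.3) are ligases of the same family, and Tsg101 (894 ± 99.3) and Hgs (413 ± 56.3) belong to the endosomal sorting machinery (SD, n = 3). Stambp, an endosomal deubiquitinase gene, did not pass at 62.9 ± 10.7 (limma adjusted p = 0.064) but lay over the threshold on all 3 arrays.

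Transcription factors with known sites or effects at connexin promoters were above background in 2 of 10 measured genes (20%, against 51.1% of all named genes), with a median margin of -0.31 log2 units, against 0.72. These were Sp1 at 2285, 2052 and 2499 and Sp3 at 975 ± 46.4, which bind GC boxes. The AP-1 genes Jun (36.9 ± 6.48) and Fos (28.5 ± 8.51), whose motif lies in the printed Gja1 window, and the repressor gene Tbx2 (9.98 ± 7.82) were not above background (SD, n = 3). No other Jun or Fos family gene was in this list, so it does not cover AP-1 as a whole. Over the alternatives tried, this list's count ranged from 2 to 5.

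**Figure D4:**
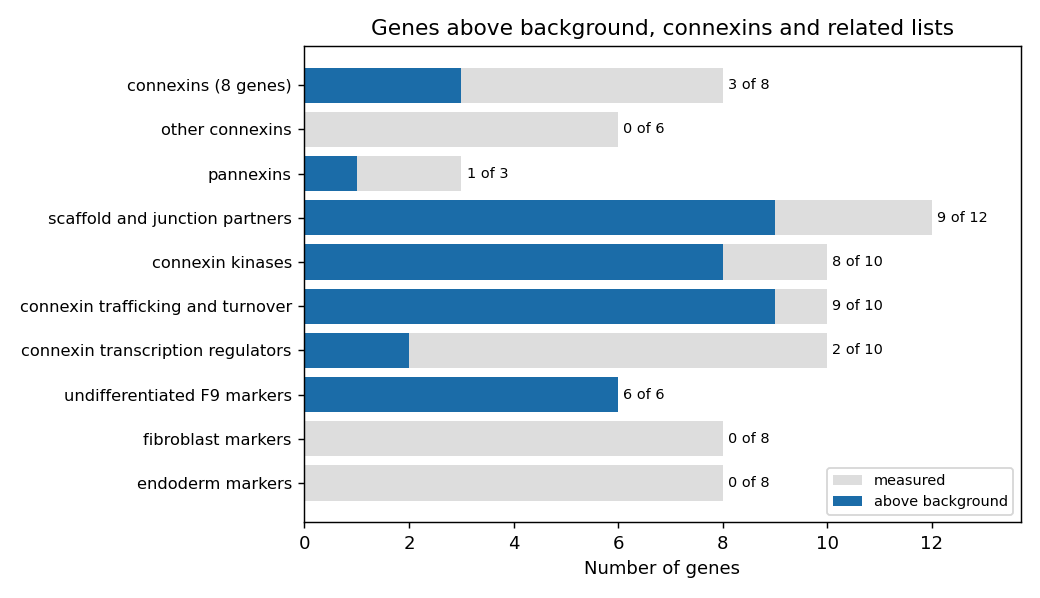
Number of genes above background (blue) out of those measured (grey) for the connexins and the related gene lists (horizontal axis, number of genes). The connexins have 3 of 8, the other connexins 0 of 6 and the trafficking list 9 of 10, where 51.1% of all named genes were above background; differences between lists were not tested.

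The cell identity of the arrays was checked with marker lists. Of 6 genes marking undifferentiated F9 cells, 6 were above background, where 51.1% of all named genes were. Among them were Pou5f1 (6809 ± 279), Sox2 (4794 ± 208), Nanog (4866 ± 392), Zfp42 (6137 ± 128) and Utf1 (3183 ± 430). Fibroblasts also make Gja1, and whether such cells contributed to its signal was not tested. Of 8 fibroblast markers, 0 were above background (limma, 0 with an unadjusted p under 0.05), where 51.1% of all named genes were. Their summed signal ranged from 193 to 210 over the arrays, with the collagen genes Col1a1 at 22.0 ± 11.2, Col1a2 at 39.3 ± 10.3 and Col3a1 at 14.9 ± 8.19. The PDGF receptor gene Pdgfrb lay closest to the threshold at 43.0 ± 5.43 (margin -0.06 log2 units). It was followed by Col1a2 (margin -0.22) and the PDGF receptor gene Pdgfra at 37.6 ± 10.7 (margin -0.28). Pdgfrb passed with the Bacillus control threshold (limma adjusted p = 0.0177). Of 8 endoderm markers, 0 passed (limma, 3 with an unadjusted p under 0.05), where 51.1% of all named genes did. Their summed signals ranged from 332 to 431. Dab2 at 72.0 ± 17.8 had the largest margin of the list, 0.66 log2 units (limma adjusted p = 0.0545), followed by Sox17 at 69.7 ± 18.6. Gata6 at 57.5 ± 3.95 (limma adjusted p = 0.0511), Gata4 at 52.8 ± 17.7 and Hnf4a at 50.4 ± 9.65 also had mean margins over the threshold. The mean margins of 3 markers lay under it, among them Afp at 16.8 ± 20.2 and Ttr at 24.4 ± 10.4 (SD, n = 3). The endoderm count ranged from 0 to 5 over the alternatives. In bulk RNA, fewer cells of a type and less RNA per cell cannot be told apart.

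**Figure D5:**
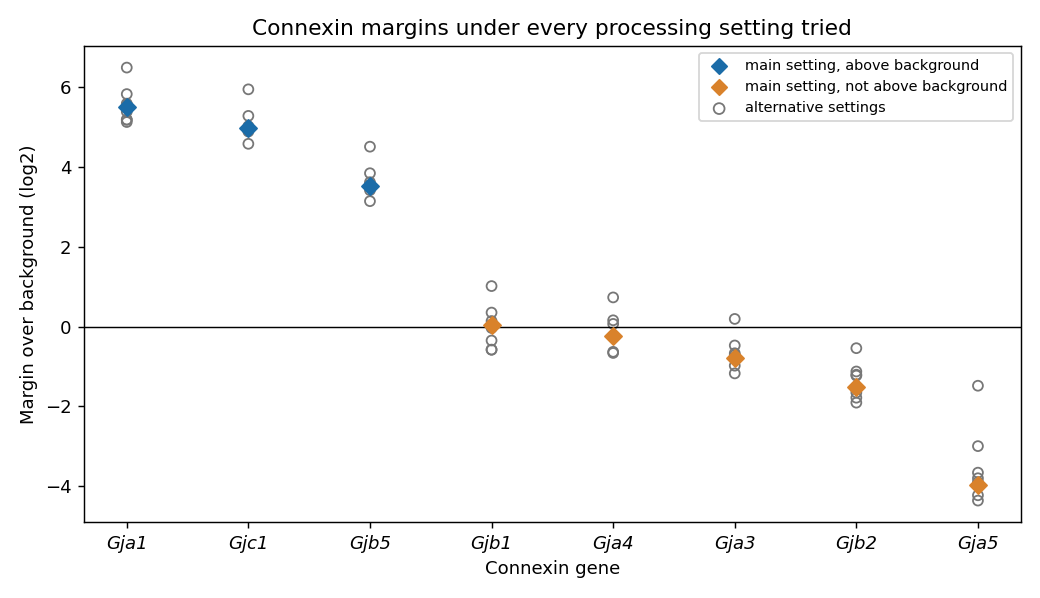
Margin over background (vertical axis, log2 units) of each connexin gene in the main setting (filled diamonds; blue above background, orange not) and under 13 alternative settings (open circles). Gja1, Gjc1 and Gjb5 stay between 3.15 and 6.49 in all of them, and of the other 5 genes Gjb1 passed in 1 setting.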

How the data were processed

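The authors deposited 1 linear signal intensity for each probe set on each array. Per the submitters' processing notes they used GCOS 1.4; the signal algorithm is not given in the sources used here. Each array's deposited intensities averaged 250.0 once 2% of probe sets were trimmed at each end, so the arrays had been scaled and were not normalized again. Scaling hides a change in total RNA, and probe affinity makes signals of different probe sets incomparable. Gene names came from the 2016 platform annotation; 34958 probe sets had a single symbol. Log2 signals minus the log2 background threshold were fitted with limma 3.58.1 in R 4.3.3 (intercept, eBayes), and the code was tested on simulated data. Of simulated probe sets placed 0.5 log2 units above the threshold 11.5% were called, against 78.5% at 1 and 100% at 2. Their fitted margins had medians of 0.29, 0.80 and 1.81 log2 units, so these call rates belong to margins lower than those set. A gene slightly above the threshold can therefore be missed. The members and gene lists were chosen with earlier results of these data known. Named were all 8 connexins, all measured other connexins and pannexins, the first 5 measured genes of each other list and up to 3 more with a call unlike the list's majority. The endoderm markers Dab2 and Hnf4a were named besides, for margins over the threshold. No gene was named for a like pattern, since 3 replicates of 1 condition give none. Nothing in the labels ties the RNA samples to separate cultures; the p-values therefore cover the spread of these 3 samples alone, which may be technical, and 3 arrays limit the precision. Pairwise correlations of log2 signals over probe sets were 0.917 to 0.92, and no arrays were duplicates.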

Additional observations from a re-analysis of the deposited data

How the results depend on the processing

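The calls of the 8 connexin genes were recomputed under 13 alternatives, and 103 of the 104 gene results kept their call; the exception was Gjb1 with the Bacillus control threshold, where 4 genes passed. The count of connexin genes was 3 under the other 12, including each replicate left out and the signal above the threshold on all 3 arrays without a test, and was also 3 in a further setting where every probe set of a gene had to pass. The count of connexin probe sets was 9 or 10 except without _s_at and _x_at probe sets, where 4 of the 10 left (40%) passed, against 35.7% of all probe sets. That setting took out 6 connexin probe sets. Among these, the 4 Gja1 _x_at sets and 1447787_x_at of Gjc1 were above background in the main setting. The median margin moved to 2.79 with the 90th percentile, 2.09 with the 99th and 3.46 with Bacillus controls, as the threshold itself moved, and ranged from 2.42 to 2.60 with 1 replicate left out. Prkcd reversed to -0.61 when probe sets without a suffix letter were preferred. With Bacillus controls 5 endoderm, 5 transcription factor and 1 fibroblast gene passed, against 0, 2 and 0 in the main setting. With that lower threshold the count over all 45101 probe sets also rose, to 21115 from 17205. No paired analysis was possible because all arrays belong to 1 group. Signals below the threshold have no readable order, and Gjb5 rests on a single probe set.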
